A study of Mus musculus with 6 samples.

Results

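Killer lymphocytes destroy a transplanted organ partly through cytotoxic granules, and the 9 genes described here encode parts of that weapon: the granzymes Gzma, Gzmb, Gzmc and Gzmk, the pore-forming protein perforin (Prf1), the granule membrane protein Nkg7, cathepsin W (Ctsw), the granzyme B inhibitor Serpinb9 and Fas ligand (Fasl). The members were chosen by gene name, with no threshold on their values but with earlier results of these data known. All 9 had a probe set of their own. They held 11 of the 22690 probe sets of the array and made up 9 of 12393 genes. RNA came from mouse heart grafts, with 1 array for each of 6 groups, so no group had a replicate, no spread could be estimated and no p-value is given. The groups were an untreated syngraft, an untreated allograft and 4 allografts from treated mice. CsA (cyclosporin A) was given at 15 mg/kg every 24 h. BH4 (tetrahydrobiopterin) and ABH4 (4-amino tetrahydrobiopterin) were given at 50 mg/kg every 8 h, and NIL (N-imino ethyl-L-lysine) at 5 mg/kg every 8 h. The sources used here do not give the mouse strains, the ages, the day of graft removal or any pooling of grafts. Each difference is one between 2 arrays, and differences between strains or single grafts cannot be told apart from those between groups.

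When a cytotoxic T cell or natural killer (NK) cell meets its target, granules travel to the contact site and release their contents. Perforin opens the way into the target cell, and the granzymes, which are serine proteases, then cleave proteins inside it and start cell death. Fas ligand on the killer cell surface triggers the same end through the receptor Fas and caspase 8, without granules. Cyclosporin A blocks calcineurin and with it the activation of T cells. BH4 is a cofactor that nitric oxide synthases need, ABH4 is its analog with an amino group in place of an oxo group and opposes that cofactor, and NIL inhibits the inducible nitric oxide synthase.

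Signals are deposited intensities rescaled to a common array median, a step with log2 factors from -0.09 to 0.10. Signals under a floor of 34.8, which is the 30th percentile over the 6 rescaled arrays, took the floor value before the log2 step. A fold difference with 1 of its arrays at the floor is therefore written as "at least". Levels of different probe sets were not compared with each other. Cardiomyocyte markers, which define the labelled tissue, were above the floor in 8 of 8 genes on every array, with summed signals between 37970 and 47640. The BH4 array stood apart from the rest: 4 of its 5 salivary gland markers were at least 2-fold above the untreated allograft, and their summed signal was 12240 against 113 to 319 on the other arrays.

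On the brightest probe set of every member the syngraft and CsA values lay below those of the other allografts, while the highest array differed between members. The stretches before the start sites are shown for some of them. These are the gene with the widest difference (Gzmb), a pair with similar patterns (Gzma and Nkg7) and the member with the largest difference under NIL (Gzmk). Each stretch is the 250 bases before the start of the gene, written along the gene's own strand. The source was RefSeq on mouse build GRCm38.p6, where 8 of the 9 members had an entry. Capitals mark matches, on either strand, to T-box letters (TCACAC), a RUNX site (TGTGGT), an NFAT core (GGAAAA), an ETS core (ACTTCC) or an AP-1 site (TGANTCA). A match read from the opposite strand appears as the reverse complement.
Gzmb, chr14:56262335-56262584, minus strand: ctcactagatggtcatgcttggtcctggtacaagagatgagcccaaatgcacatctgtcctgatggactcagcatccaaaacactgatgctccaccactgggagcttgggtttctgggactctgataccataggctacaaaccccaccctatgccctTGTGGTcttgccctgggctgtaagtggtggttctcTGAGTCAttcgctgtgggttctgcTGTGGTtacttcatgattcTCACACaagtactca
Gzma, chr13:113100982-113101231, minus strand: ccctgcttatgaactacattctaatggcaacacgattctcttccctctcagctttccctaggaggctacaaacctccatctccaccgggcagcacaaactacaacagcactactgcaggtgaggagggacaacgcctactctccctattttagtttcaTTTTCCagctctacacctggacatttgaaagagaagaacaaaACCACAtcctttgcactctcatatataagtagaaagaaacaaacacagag
Nkg7, chr7:43436888-43437137, plus strand: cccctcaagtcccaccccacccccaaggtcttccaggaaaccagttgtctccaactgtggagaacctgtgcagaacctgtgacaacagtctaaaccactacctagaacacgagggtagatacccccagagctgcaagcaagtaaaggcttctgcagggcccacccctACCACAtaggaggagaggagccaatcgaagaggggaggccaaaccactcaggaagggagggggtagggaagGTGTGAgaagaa
Gzmk, chr13:113180966-113181215, minus strand: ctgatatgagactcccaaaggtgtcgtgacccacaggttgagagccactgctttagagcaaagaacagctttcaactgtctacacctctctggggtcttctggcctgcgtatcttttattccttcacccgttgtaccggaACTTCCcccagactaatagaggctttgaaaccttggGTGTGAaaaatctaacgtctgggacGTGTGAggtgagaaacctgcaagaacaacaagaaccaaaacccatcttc

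The RUNX letters occurred in 5 of 8 members and in 14.0% of 32851 windows of this length. They lay 34 and 93 bases before the start in Gzmb, 50 in Gzma and 83 in Nkg7, and were not in the window of Gzmk. The T-box letters occurred in 3 of 8 members (Gzmb, Gzmk and Nkg7) against 12.3% of windows, 49 and 74 bases before the start in Gzmk, 15 in Gzmb and 12 in Nkg7. ETS letters occurred in 4 of 8 against 19.7%, NFAT letters in 3 of 8 against 20.4% and AP-1 letters in 1 of 8, Gzmb, against 6.75%. In the RefSeq gene order Gzma and Gzmk are neighbours on chromosome 13, and Gzmb and Gzmc are neighbours on chromosome 14, with 0 protein-coding genes between the members of either pair. A match is a description of letters and not of a bound site.

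The 4 granzymes were higher in the untreated allograft than in the syngraft and lower again with CsA. Gzmb, which cleaves and activates caspases and Bid in target cells, had signals of 33.6 in the syngraft, 3888 in the untreated allograft, 346 with CsA, 2973 with BH4, 3703 with ABH4 and 3358 with NIL. The syngraft was thus below the floor, the CsA array stood between it and the rest, and the other 4 allografts lay within 1.31-fold of each other. Gzmb was at least 112-fold higher in the untreated allograft than in the syngraft and 11.2-fold lower with CsA than without treatment. Gzma, a granzyme of tryptase type, had signals of 59.8 in the syngraft, 1353 in the untreated allograft, 98.4 with CsA, 761 with BH4, 1376 with ABH4 and 1023 with NIL. Its CsA value lay close to the syngraft and its BH4 value lowest among the other allografts, with differences of 22.6-fold for allograft over syngraft and 13.7-fold for untreated allograft over CsA.

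Gzmk, a tryptase-like granzyme, followed another order among the allografts. It had signals of 49.2 in the syngraft, 231 in the untreated allograft, 72.6 with CsA, 230 with BH4, 303 with ABH4 and 398 with NIL. NIL was highest and the untreated and BH4 arrays were level, whereas Gzma was lower with BH4 and with NIL than without treatment. The allograft exceeded the syngraft by 4.70-fold and the CsA array by 3.18-fold. Gzmc, a granzyme from the cluster that also holds Gzmb, was faint: 23.1 in the syngraft, 74.8 in the untreated allograft, 20.3 with CsA, 41.7 with BH4, 73.2 with ABH4 and 82.9 with NIL. Its syngraft and CsA values were both below the floor, which gave at least 2.15-fold for the allograft over either. The other 6 granzymes listed showed no such difference: Gzmd, Gzme, Gzmf, Gzmg and Gzmn were below the floor on all 6 arrays, and Gzmm was above it in the syngraft (46.5) and with NIL (40.4) alone.

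Perforin was measured by 2 probe sets that differed in behaviour. The brighter one had signals of 80.5 in the syngraft, 408 in the untreated allograft, 100 with CsA, 267 with BH4, 398 with ABH4 and 365 with NIL. It placed the CsA array near the syngraft and the BH4 array between these and the other allografts, with 5.07-fold for allograft over syngraft and 4.07-fold for untreated allograft over CsA. The fainter one had signals of 52.7, 44.5, 53.0, 27.1, 36.6 and 51.4 in the same order of arrays, so its allograft value was 1.18-fold below the syngraft. Averaging both probe sets on the log2 scale left a Prf1 difference of 1.05 for allograft minus syngraft, where the brighter one alone gave 2.34.

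Nkg7, a granule membrane protein needed for granule release, had signals of 36.4 in the syngraft, 786 in the untreated allograft, 85.4 with CsA, 565 with BH4, 932 with ABH4 and 1026 with NIL. The allograft was 21.6-fold above the syngraft and the CsA array 9.20-fold below the untreated allograft, yet still 2.35-fold above the syngraft. Ctsw, a cysteine protease made by cytotoxic T and NK cells, had signals of 12.9 in the syngraft, 269 in the untreated allograft, 28.4 with CsA, 155 with BH4, 259 with ABH4 and 326 with NIL. Both the syngraft and the CsA array were below the floor, and the untreated allograft was at least 7.73-fold above either. The Ctsw values of the other 4 allografts spread over 2.10-fold, the widest range among the members, from BH4 to NIL.

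Serpinb9, which inhibits granzyme B and shields cells from it, kept the highest share of its difference under CsA among the 6 members above the floor in the syngraft, the untreated allograft and the CsA array. It had signals of 192 in the syngraft, 1167 in the untreated allograft, 396 with CsA, 1015 with BH4, 1168 with ABH4 and 940 with NIL. The allograft was 6.07-fold above the syngraft, and the CsA array, 2.95-fold below the untreated allograft, stayed 2.06-fold above the syngraft. On the log2 scale the CsA array kept 40.1% of the Serpinb9 difference between allograft and syngraft. Among the other members so measured, it kept 27.8% for Nkg7, 25.2% for Gzmk, 16.0% for Gzma and 13.4% for Prf1, and for Fasl it was below the syngraft. No such share is given for Gzmb, Gzmc and Ctsw, whose syngraft value was below the floor. For Gzmb the log2 difference from the syngraft was at least 6.80 in the untreated allograft and at least 3.31 with CsA. Taken at the floor, this is a larger share than that of Serpinb9, so the order holds for the 6 measured members only.

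Fasl, the surface ligand that kills through Fas, differed least. Its brighter probe set had signals of 48.0 in the syngraft, 73.6 in the untreated allograft, 44.8 with CsA, 89.9 with BH4, 91.8 with ABH4 and 106 with NIL. The allograft was 1.53-fold above the syngraft and 1.64-fold above the CsA array, which was the lowest of the 6. The fainter probe set was below the floor in the syngraft and with CsA and lay between 45.5 and 58.2 on the other 4 arrays. Both probe sets thus had the syngraft and the CsA array as their lowest values.

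**Figure D1:**
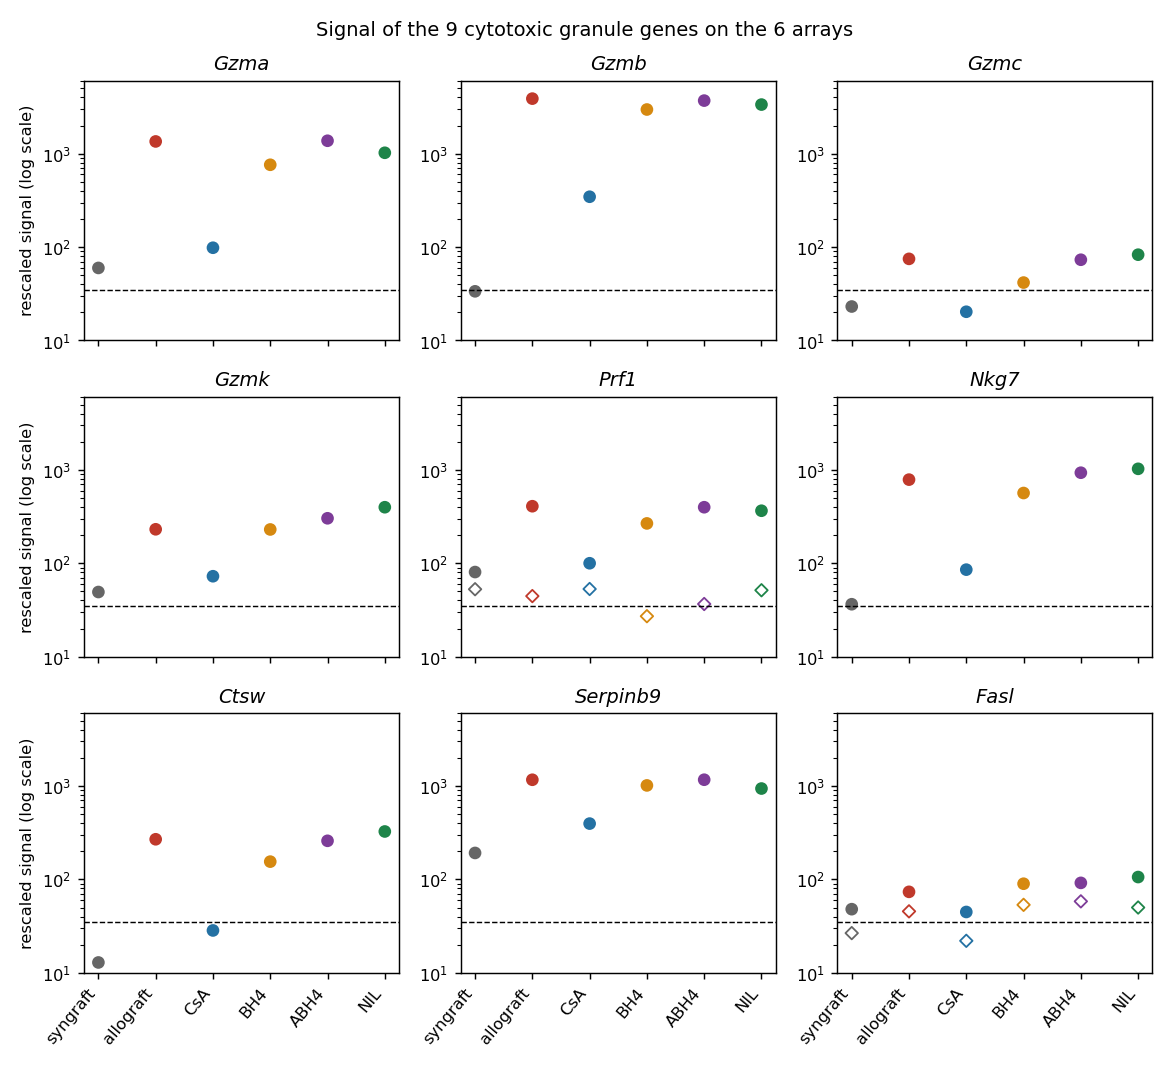
Rescaled signal (log scale) of each of the 9 genes on the 6 arrays, 1 point per array. Filled circles are the brightest probe set, open diamonds the second probe set of Prf1 and Fasl, and the dashed line is the floor of 34.8. Syngraft and CsA values lie below those of the other 4 allografts for every brightest probe set, while the second Prf1 probe set stays between 27.1 and 53.0.

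Counted over the group, 8 of 9 members were at least 2-fold higher in the untreated allograft than in the syngraft, against 6.87% of all genes (5.11% without the rescaling), and 0 of 9 were 2-fold lower (4.81% of all genes). Fasl was the member short of 2-fold. Their median log2 difference was 2.60, with a range from 0.62 for Fasl to 6.80 for Gzmb, against a median of 0 over all genes. Above the floor were 6 of 9 members in the syngraft (76.9% of all genes) and 7 with CsA (76.6%). On each of the other arrays all 9 were above it (73.6% to 76.9% of all genes). Over the syngraft, 7 of 9 members were at least 2-fold higher with BH4 (6.15% of all genes), 8 of 9 with ABH4 (7.07%) and 9 of 9 with NIL (5.95%), all comparisons that share the syngraft array. Across the 4 allografts other than CsA, each exceeded the syngraft by at least 2-fold in 7 of 9 members, against 3.72% of all genes. Gzmc and Fasl were the others.

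With CsA 8 of 9 members were at least 2-fold lower than in the untreated allograft, against 4.06% of all genes (2.64% without the rescaling), and 0 of 9 were 2-fold higher (3.21% of all genes). Fasl was again the member short of 2-fold. The median was -2.03. The CsA array lay at least 2-fold below each of the other 4 allografts in 7 of 9 members, where 1.78% of all genes did, and below each of them by any amount in 9 of 9, where 26.5% of all genes did. Against the syngraft the CsA array was at least 2-fold higher in 3 of 9 members (2.28% of all genes), and these were Gzmb (at least 9.94-fold), Nkg7 and Serpinb9. The others ranged from 1.64-fold higher (Gzma) to 1.07-fold lower (Fasl), with Gzmc and Ctsw at the floor on both arrays.

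**Figure D2:**
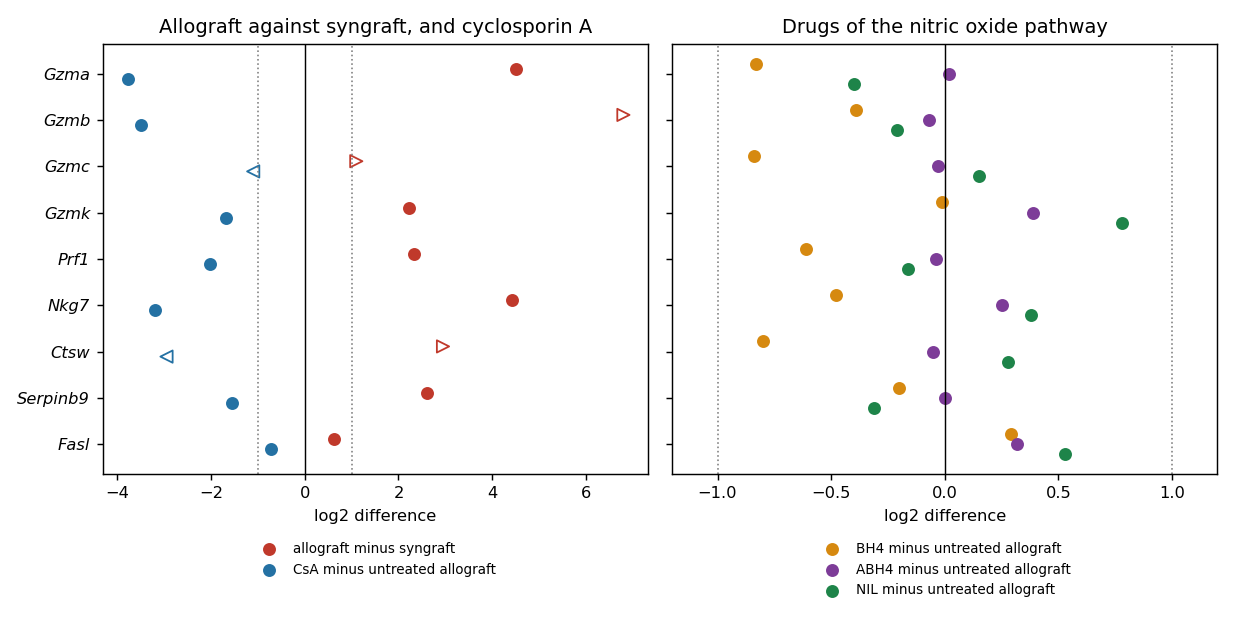
Log2 differences of the 9 genes (brightest probe set). The left panel shows untreated allograft minus syngraft and CsA minus untreated allograft. The right panel, on a narrower scale, shows BH4, ABH4 and NIL minus untreated allograft. Open triangles are lower bounds with 1 array at the floor, dotted lines mark 2-fold, and no error can be drawn with 1 array per group. All 9 genes lie right of 0 for the allograft and left of 0 for CsA, and no gene reaches 2-fold with the 3 drugs in the right panel.

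The 3 drugs that act on nitric oxide synthesis share the untreated allograft as their comparator, so their values stand side by side and are not independent of each other. With each of them 0 of 9 members were 2-fold different. Over all genes 1.54% were 2-fold higher and 0.42% lower with BH4, 0.694% and 0.282% with ABH4, and 1.33% and 0.791% with NIL. BH4 had the lower values: 4 of 9 members were at least 1.5-fold lower than without treatment, against 3.35% of all genes, and 0 were as much higher (4.9%). These were Gzmc (1.79-fold), Gzma (1.78-fold), Ctsw (1.74-fold) and Prf1 (1.53-fold). The count was 3 of 9 under quantile normalization, with the floor at the 50th percentile and with the mean over probe sets. The median was -0.48, with Nkg7 1.39-fold, Gzmb 1.31-fold and Serpinb9 1.15-fold lower and Fasl 1.22-fold higher. Gzmk differed by -0.01, a sign that turned under quantile normalization. The BH4 array was the lowest of the 4 allografts without CsA in 7 of 9 members, where 21.0% of the 8428 genes above the floor on all 4 had their lowest value there.

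ABH4 gave values close to the untreated allograft. The median was 0, and 0 of 9 members were 1.5-fold different, where 3.24% of all genes were that much higher and 2.49% that much lower. Gzmk was 1.31-fold, Fasl 1.25-fold and Nkg7 1.19-fold higher, and the other 6 lay within 1.05-fold. The signs of Gzmc and Prf1 turned on the deposited values and those of Gzmb and Prf1 under quantile normalization. With NIL the median was 0.15 and 1 of 9 members, Gzmk, was at least 1.5-fold higher (1.72-fold), against 6.37% of all genes, and 0 were as much lower (5.33%). On the deposited values 2 of 9 were at least 1.5-fold higher, Gzmk (0.93 on the log2 scale) and Fasl (0.67). Fasl was 1.44-fold, Nkg7 1.30-fold, Ctsw 1.21-fold and Gzmc 1.11-fold higher, while Gzma was 1.32-fold, Serpinb9 1.24-fold, Gzmb 1.16-fold and Prf1 1.12-fold lower, a sign that turned for Prf1 under quantile normalization. NIL was the highest of the 4 allografts without CsA in 5 of 9 members, against 21.2% of the 8428 genes.

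ABH4 and BH4, given at the same dose and interval, were compared directly as 1 pair. All 9 members were higher with the amino analog than with BH4 on the rescaled, deposited and quantile normalized values, where 45.7% of genes above the floor on both arrays were higher. The median difference was 0.57, from 0.03 for Fasl to 0.85 for Gzma. At least 1.5-fold higher were 4 of 9, against 3.26% of all genes: Gzma (1.81-fold), Gzmc (1.76-fold), Ctsw (1.67-fold) and Nkg7 (1.65-fold). At 2-fold there were 0 of 9, against 0.46%, and with 1 array each no interval of the difference can be given. In the same comparison 7 of 8 T cell markers were higher with ABH4 (list median 0.58), among them Cd2 (2.05-fold) and Cd3d (1.52-fold). Zap70, read from the brightest of its 2 probe sets, was 1.44-fold lower. The NK median was 0.43, the fibroblast median -0.78 and the salivary gland median -5.85. The part of these transcripts in the granule differences was not tested.

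Most T cell and NK cell markers differed in the same directions as the granule genes. Of 8 T cell markers, 7 were at least 2-fold higher in the untreated allograft than in the syngraft and 7 were 2-fold lower with CsA, with medians of 2.63 and -2.55. Their summed signal was 458 in the syngraft, 456 with CsA, 2331 in the untreated allograft, 1820 with BH4, 2464 with ABH4 and 2456 with NIL. Zap70, read from the brightest of its 2 probe sets, made up most of the sums in the syngraft (334) and with CsA (264). At 264 in the untreated allograft this probe set did not follow the other markers, and the second one is not given here. Cd3g had 25.5 in the syngraft and 63.2 with CsA, so the near-equal sums do not describe each marker. The T cell receptor subunits Cd3d, Cd3e and Cd3g were below the floor in the syngraft, and Cd3d (10.3) and Cd3e (13.4) were so with CsA. Cd8a, a coreceptor of cytotoxic T cells, had 173 in the untreated allograft and 68.8 with CsA and was below the floor in the syngraft (31.5). Cd8b1 was below it in the syngraft and with CsA, and Cd4 on all 6 arrays. Of 9 NK cell markers, 7 reached 2-fold higher in the allograft and 6 reached 2-fold lower with CsA (medians 1.2 and -1.06). Ncr1 had 51.3 in the syngraft, 114 in the untreated allograft and 86.6 with CsA, only 1.32-fold below the untreated allograft. The NK receptor chain Klrd1 had 27.1 in the syngraft, 252 in the untreated allograft and 86.5 with CsA, and Klra7 and Klra8 were below the floor on every array. The part of these markers' cells in the granule values was not tested. In whole graft RNA fewer cells of a type and less RNA per cell cannot be told apart.

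With BH4 most lymphocyte markers had lower values than without treatment, but not all. The T cell median was -0.45, where Cd2 was 2.09-fold lower and Cd247 1.84-fold, and the NK median was -0.36, where Ncr1 was 2.18-fold lower and Klrd1 1.65-fold. Zap70, a kinase of T cell receptor signalling, was 1.37-fold higher with BH4 on its brightest probe set (361 against 264). Cd8a, also read from the brightest of 2 probe sets, was 1.31-fold higher (227 against 173), while Cd8b1 was 1.32-fold lower (107 against 142). Beside them on the same array fibroblast markers were at least 2-fold higher in 7 of 8 (median 2.04) and macrophage markers had a median of 0.31. The cardiomyocyte median was -0.02 and the endothelial median -0.01. The salivary gland markers were led by Bpifa2, at least 167-fold higher. The part of the salivary gland and fibroblast transcripts in the lower granule values with BH4 was not tested.

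Between allograft and syngraft the lists of other cell types differed less or went the other way. Macrophage markers were at least 2-fold higher in 2 of 10 and lower in 1 in the allograft against the syngraft (median 0.23), with Msr1 5.80-fold higher and Mrc1 2.31-fold lower. Neutrophil markers were lower in 2 of 8 (Mmp9 5.78-fold, S100a9 2.26-fold), and of 6 B and plasma cell markers only Jchain was 2-fold different, 2.37-fold higher. Of 7 mast cell markers, 4 were below the floor in the syngraft and 4 in the untreated allograft. None of the 7 was 2-fold different between these arrays, and their summed signal lay between 223 and 319 on all 6 arrays. Of these Mcpt4, Tpsb2 and Fcer1a were below the floor on every array, and Cpa3 was 2.41-fold higher with CsA than without treatment. Fibroblast markers were lower in 8 of 8 (median -3.02) and endothelial markers in 3 of 7 (median -0.57), and none of 8 cardiomyocyte markers was 2-fold different. Single macrophage and neutrophil markers were also lower with CsA than without treatment: Msr1 (5.02-fold), S100a8 (3.63-fold), S100a9 (2.43-fold) and Csf3r (2.29-fold). Mrc1 (2.04-fold) and Mmp9 (2.25-fold) were higher with CsA.

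**Figure D3:**
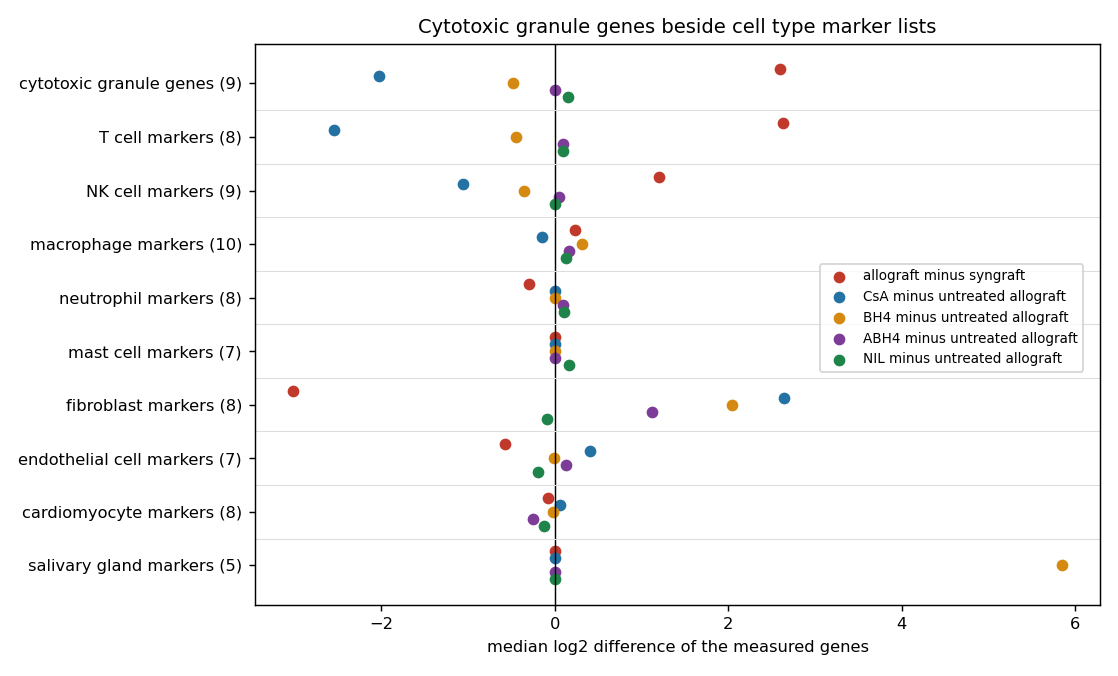
Median log2 difference (x axis) of the 9 granule genes and of 9 cell type marker lists in 5 comparisons, 1 colour each, with the number of measured genes in brackets. T and NK cell markers share the signs of the granule genes for the allograft, CsA and BH4. Fibroblast markers have the opposite sign there, and the BH4 array alone is far right for the salivary gland list (5.85).

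The rest of the killing machinery, listed by role, differed in part. Of 10 genes for the granule matrix and granzyme processing, 5 exceeded the syngraft by 2-fold or more in the untreated allograft and 2 were as much lower with CsA. Srgn encodes serglycin, the proteoglycan that packs granzymes, and was 4.43-fold higher in the allograft (2531 against 572) and 2.78-fold lower with CsA. Cst7, or cystatin F, an inhibitor of cathepsins, was at least 6.55-fold higher and at least 6.55-fold lower. Ctsc, the protease that activates granzymes, had 1393 in the syngraft, 3338 in the untreated allograft and 1709 with CsA. Of 7 genes of granule transport and fusion measured, 2 were 2-fold higher in the allograft, Vamp8 (2.30-fold) and Lyst (2.04-fold). Another Lyst probe set differed by 0.35 on the log2 scale. With CsA 1 was 2-fold lower, Stxbp2 (2.61-fold), and Sytl2 was at least 1.76-fold lower.

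Relatives of Serpinb9 gave smaller differences than it did: 0 of 5 other serpins measured were 2-fold different between allograft and syngraft or with CsA. Serpinb1a was 1.49-fold lower and Serpinb6a 1.34-fold higher in the allograft. Of 14 genes of the death receptor and caspase pathway 3 reached 2-fold higher in the allograft and 3 reached 2-fold lower with CsA. Both counts included Bid, a substrate of granzyme B (at least 4.56-fold higher, then 3.13-fold lower), and Bak1, which acts with it at the mitochondrion (4.22-fold and 3.08-fold), and the cytokine Tnf (2.66-fold and 2.57-fold). Fas itself, the receptor of Fasl, was 1.45-fold lower in the allograft than in the syngraft and 1.33-fold higher with CsA than without treatment.

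Of 10 regulators of the cytotoxic lineage 4 were 2-fold higher in the allograft and 3 lower with CsA. Il2rb, a receptor chain for interleukins 2 and 15, had 15.7 in the syngraft, 399 in the untreated allograft and 60.9 with CsA, and its second probe set had 116, 342 and 114. Tbx21, the T-box factor T-bet, was below the floor in the syngraft (28.5) and had 125 in the untreated allograft, 38.7 with CsA, 116 with BH4, 134 with ABH4 and 148 with NIL. Id2, a factor that cytotoxic cells need, was 8.07-fold higher in the allograft. Eomes, the other T-box factor of these cells, had 46.8, 54.1 and 43.1 in the syngraft, untreated allograft and CsA arrays, and Runx3 had 74.3, 53.8 and 12.9. Both were thus within 1.38-fold between allograft and syngraft, and the CsA value of Runx3 was below the floor. Between ABH4 and BH4 2 of the 10 were 2-fold higher with ABH4, Il2ra (2.30-fold) and Stat4 (at least 2.12-fold). Runx3 went the other way, at least 1.95-fold lower with ABH4, where it was below the floor (31.6 against 67.9).

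The genes with the most similar pattern were sought among 9553 genes above the floor on at least 3 arrays, by the root mean square difference of log2 values over the 6 arrays after each gene was centred on its own mean. This distance is a description over 6 arrays that share their scaling. Genes below the floor on the same array take the same value there, which shortens the distance between them. The floor also cuts the range of a neighbour that is below it where the member is above it. Such neighbours are Cd3d of Gzma and Klrc1 of Gzmk, in the syngraft and with CsA. In the syngraft alone they are Cd3g of Nkg7, Cd247 of Prf1 and Lta of Fasl. Nearest to Ctsw was Cst7, at 0.0963, but both were below the floor in the syngraft and with CsA, so this distance and rank rest in part on the floor. Nearest to Prf1 was the lymphocyte adaptor Cytip (0.0787), followed by the leukocyte phosphatase Ptprc (0.125) and the T cell receptor zeta chain Cd247 (0.139). Nearest to Gzmk was the lymphocyte GTPase Gimap7 (0.116), then the leukocyte integrin Itgb2 (0.192) and the NK receptor Klrc1 (0.205). Serpinb9 had Slfn1 (0.0635), the T cell adaptor Lcp2 (0.0779) and Ggct (0.0847).

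Gzma had Ms4a4b (0.235), Cd3d (0.245) and Nkg7 (0.277) nearest, and Nkg7 had Cd3g (0.239), Ms4a4b (0.260) and Gzma. For Gzmb no gene came close: Acod1 lay at 0.820, Nkg7 at 0.832 and Gbp8 at 0.845. Fasl, with its narrow range, was nearest to Zgpat (0.0935), the cytokine lymphotoxin alpha, Lta (0.117), and Tkt (0.117). Gzmc was nearest to Csf3r (0.0935), Tmco4 (0.13) and Spata13 (0.13), all 3 of which were above the floor on the 6 arrays, Gzmc on 4 of them. The average profile of the 9 members was nearest to Upp1 (0.106), the complement factor Cfb (0.123) and Itgb2 (0.159). Between members the distance ran from 0.270 for Prf1 and Serpinb9 to 2.15 for Gzmb and Fasl and for Gzmb and Gzmc. The distance grows with the size of the differences, which the floor cuts short for the faint Gzmc. Both Gzmb and Gzmc, neighbours on chromosome 14, had their lowest value with BH4 among the 4 allografts without CsA, which held for 7 of the 9 members.

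**Figure D4:**
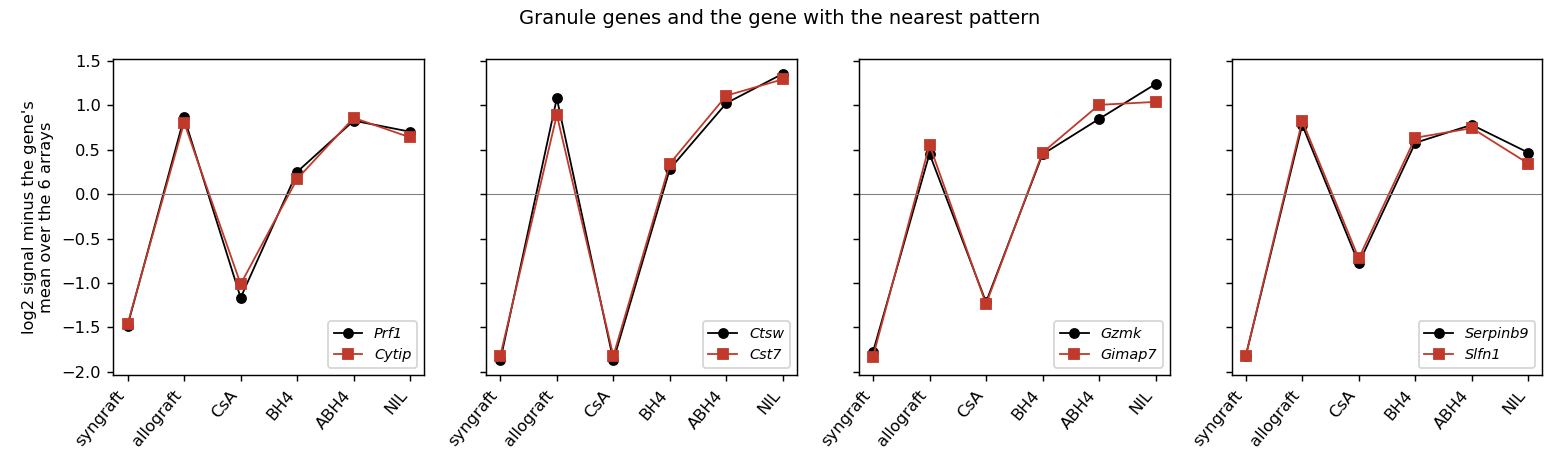
Log2 signal, set to the floor where below it and centred on each gene's mean over the 6 arrays (y axis), for 4 granule genes (black circles) and the gene nearest to each (red squares) on the 6 arrays, joined by lines as a guide only. The 4 granule genes have their lowest values in the syngraft and with CsA, and NIL is highest for Gzmk and Ctsw but not for Prf1 and Serpinb9.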

How the data were processed

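The authors deposited 1 signal intensity per probe set and array, 22690 in all. The mean after trimming 2% from each end was 200 on every array, so the deposited intensities had been scaled by the authors. The sources used here do not give the summarisation or the background correction. Each array was rescaled to the mean of the 6 medians over 22626 probe sets other than controls (array medians were 77.7 to 88.5 as deposited), floored at the 30th percentile (34.8) and log2 transformed, with Python 3.11.15, numpy 2.4.6 and pandas 2.3.3. A gene took its brightest probe set by mean signal, among the 20380 assigned to 1 symbol. The 691 probe sets of several genes and the 1555 without a gene were left out. With 1 array per group no test was made, and the number of arrays limits the precision. The procedure was checked on simulated data, where only genes far above the floor were shifted, so the check does not cover differences near the floor. Genes were counted as at least 2-fold or 1.5-fold different in 10 comparisons. Named were all 9 members, the 3 nearest patterns and genes of 17 lists (6 of pathways, 11 of markers). The 2 genes of each list that differed most between allograft and syngraft, and the 2 with CsA, were candidates, and only part of them is named. Other list genes were chosen after their values were seen. List genes without a probe set of their own were not analysed here. The members and lists were chosen with earlier results of these data known. Alternatives were the deposited values, normalization by quantiles, floors at the 10th and 50th percentiles, the mean over probe sets and, chosen after seeing the data, scaling without the BH4 array.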

Additional observations from a re-analysis of the deposited data

How the results depend on the processing

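The counts of members at least 2-fold different stayed within 1.5 times of those reported under the 5 alternatives in 10 comparisons, and under the rescaling without the BH4 array in the 7 that do not use it. For allograft against syngraft 7 of 9 passed with a floor at the 50th percentile and 8 under each of the others. For CsA against untreated allograft 7 passed with that floor and with the mean over probe sets, and 8 otherwise. No member's sign turned where its difference was at least 1.5-fold. The floor set the size of the bounds: for allograft minus syngraft the floors at the 10th and 50th percentile gave 4.38 and 1.69 for Ctsw, 1.69 and 0 for Gzmc, and the latter gave 5.54 for Gzmb and 0 for Fasl. Values of Gzmc and Fasl, within about 3-fold of the floor on all arrays, are limited by faint signal. Without rescaling, the array medians differed by -0.19 for allograft minus syngraft, 0.19 for CsA and 0.15 for NIL minus untreated allograft, and over all genes 633 were then higher and 860 lower in the allograft (852 and 596 with rescaling), 599 and 327 with CsA (398 and 503) and 269 and 53 with NIL (165 and 98). No paired analysis was possible because each group holds 1 array.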
